A study of Mus musculus with 12 samples.

Results

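The growth hormone, insulin and IGF axis was followed through 10 genes, taken by symbol from a count table of 53599 genes: the receptor genes Ghr, Prlr and Insr, the ligand gene Igf1, the carrier subunit gene Igfals, and the binding protein genes Igfbp1, Igfbp2, Igfbp3, Igfbp4 and Igfbp7. All 10 were found and all 10 passed the filter on low counts, which kept 16210 genes. The 12 RNA-seq libraries came from cells sorted out of mouse liver, 3 in each of 4 groups, and all mice were labelled WT and had received AAV8-TBG-Cre. This virus expresses Cre from the hepatocyte-specific TBG promoter, so that EGFP labels hepatocytes and the cells that arise from them. A diet with 0.1% DDC, a compound that injures bile ducts and under which hepatocytes can take on biliary features, began 1 week after the virus and lasted 8 weeks. EGFP+ Cd24- Epcam- cells form the early group, EGFP+ Cd24+ Epcam- cells the intermediate group, EGFP+ Cd24+ Epcam+ cells the full group, and EGFP- Epcam+ cells the resident biliary epithelial cells, called BEC. No group lacks the virus or the diet, so every comparison is between cell states within injured livers. The strain, sex and age of the mice, and whether a replicate is 1 animal, are not given in the labels used here, so p-values measure the spread between these libraries, which may be technical in part.

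Growth hormone from the pituitary acts on the liver through its receptor, the kinase Jak2 and the transcription factor Stat5b, and Igf1 is the best known target of that pathway. Hepatocytes release most circulating IGF-1, which travels in a complex with an IGF-binding protein and the acid-labile subunit encoded by Igfals. Adult hepatocytes respond to insulin through Insr and carry little of the IGF-1 receptor, Igf1r. Insulin lowers Igfbp1 transcription by removing FOXO factors from the nucleus.

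The promoters of Igfals and Igfbp1 are shown because these genes are textbook targets of growth hormone and of insulin and their windows hold a match to a motif searched. The window of Igf1 held none and is not printed, and Igfals is shown by 1 of its 3 windows, another of which has a STAT match as well. Promoter windows of 300 bases, running from 250 before each annotated start, were taken from RefSeq on GRCm38.p6, not the build named in the submitters' processing notes. They were present for 9 of the 10 genes, in 15 windows. Capitals mark the matches to the motifs searched. In Igfals these are TGTTTAC, the reverse complement of the FOX motif GTAAACA, and a match to the STAT motif TTCNNNGAA that lies 58 bases before the annotated start at its first base. In Igfbp1 they mark CAAAACA, the core of the insulin response element that FOXO factors bind, whose first base lies 108 bases before the start. That last motif was added after the windows had been read.
Igfals promoter, chr17:24877981-24878280, plus strand: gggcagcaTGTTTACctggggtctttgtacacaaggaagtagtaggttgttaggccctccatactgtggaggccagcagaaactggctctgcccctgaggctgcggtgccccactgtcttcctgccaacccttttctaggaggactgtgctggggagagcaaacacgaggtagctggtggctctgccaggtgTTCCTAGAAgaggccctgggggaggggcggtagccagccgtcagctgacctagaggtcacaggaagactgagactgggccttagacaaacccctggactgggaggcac
Igfbp1 promoter, chr11:7197537-7197836, plus strand: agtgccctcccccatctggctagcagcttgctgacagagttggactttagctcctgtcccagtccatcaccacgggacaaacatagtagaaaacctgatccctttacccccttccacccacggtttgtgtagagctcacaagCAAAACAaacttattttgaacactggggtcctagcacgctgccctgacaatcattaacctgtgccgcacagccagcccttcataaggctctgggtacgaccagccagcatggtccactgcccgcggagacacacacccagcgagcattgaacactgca
Both strands were searched. TTCNNNGAA occurred in 8.3% of all 32851 windows and in windows of 2 members, Igfals and Prlr. GTAAACA occurred in 3.65% of windows and in the same 2 members. CAAAACA occurred in 6.28% of windows and in 2 members, Igfbp1 and Prlr, in Prlr after the start of another window. The other motifs searched, the HNF1 palindrome, CAAAGTCCA for HNF4 and TGACGTCA for CREB, had no match in these windows of the members. A match is a description of the letters, and binding was not measured.

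Total counts ran from 15112893 to 19731887 per library. The summed level of 10 hepatocyte markers ran from 96351 to 101310 CPM (CPM here is relative to the TMM-scaled library size) in early libraries, from 15564 to 20305 in intermediate, from 3822 to 4913 in full and from 2385 to 3062 in BEC. The summed level of 10 biliary markers ran from 987 to 1925 CPM in early, from 9788 to 12709 in intermediate, from 12856 to 16131 in full and from 15388 to 18926 in BEC. In bulk samples, fewer cells of a type and less RNA per cell cannot be told apart. Scaling matters for genes that changed little. When only total counts set the scale, the genome-wide median log2 difference went from 0.06 to 0.72 (intermediate against early), from 0.14 to 1.005 (full against early) and from 0.01 to 0.21 (full against intermediate). Mitochondrial genes took 7.63% ± 3.31 of counts in early libraries (SD, n = 3) and between 2.20% and 4.75% in the other libraries. Of the 10 genes, only Insr changed direction with that scaling.

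Most of the axis fell as cells left the early state, and a smaller part was gained. Intermediate against early, 7 of the 10 genes were lower, 2 were higher (Igfbp7 and Igfbp3) and 1 (Igfbp1) was not called by edgeR's quasi-likelihood test at a Benjamini-Hochberg adjusted p under 0.05. Of all genes tested, 54.4% were called there, 25.7% lower and 28.7% higher. The count of lower genes depends on scaling. With total counts only, Insr was called higher at this step (0.30, edgeR adjusted p 0.00756) and Igfbp4 was not called (-0.16, edgeR adjusted p 0.199). Full against intermediate, 5 were lower and 3 higher, against 40.7% of all genes called (19.8% lower, 20.8% higher). BEC against full, 3 were lower (Ghr, Igfals and Igfbp1) and 0 higher, against 10.6% and 10.7% of all genes. With the replicate block, which compares same-numbered libraries, 5 were lower there, Igf1 and Igfbp4 being added, where the blocked fit called 12.6% of all genes lower. The median log2 fold change of the 10 was -1.19, -0.75 and -0.42 at the 3 steps, beside 0.06, 0.01 and 0.00 for all genes. All 10 differed among the 4 groups by the F test, which called 75.6% of all genes.

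Groups that are not neighbours were compared as well. Full against early, 2 were higher and 8 lower, where 71.2% of all genes were called, 39.1% higher and 32.1% lower. BEC against early gave the same numbers, 2 and 8, where 73.1% were called, 40% higher and 33% lower. In both, the 8 include Insr, which was called higher with total counts only (0.34 and 0.23, edgeR adjusted p 0.00281 and 0.0254). BEC against intermediate, 1 was higher (Igfbp7), 7 were lower and 2 (Igf1 and Igfbp3) were not called, where 52.4% were called, 26.3% higher and 26.2% lower. Insr, among these 7, was not called with total counts only (-0.07, edgeR adjusted p 0.529). Ghr, Prlr, Igfbp2 and Igfbp4 were lower at both of the first 2 steps, as were 15.3% of genes, and with the replicate block Igfbp1 joined them, where 16.9% of genes had that pattern. Igfbp3 and Igfbp7 were higher at both, as were 12.8%.

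**Figure D1:**
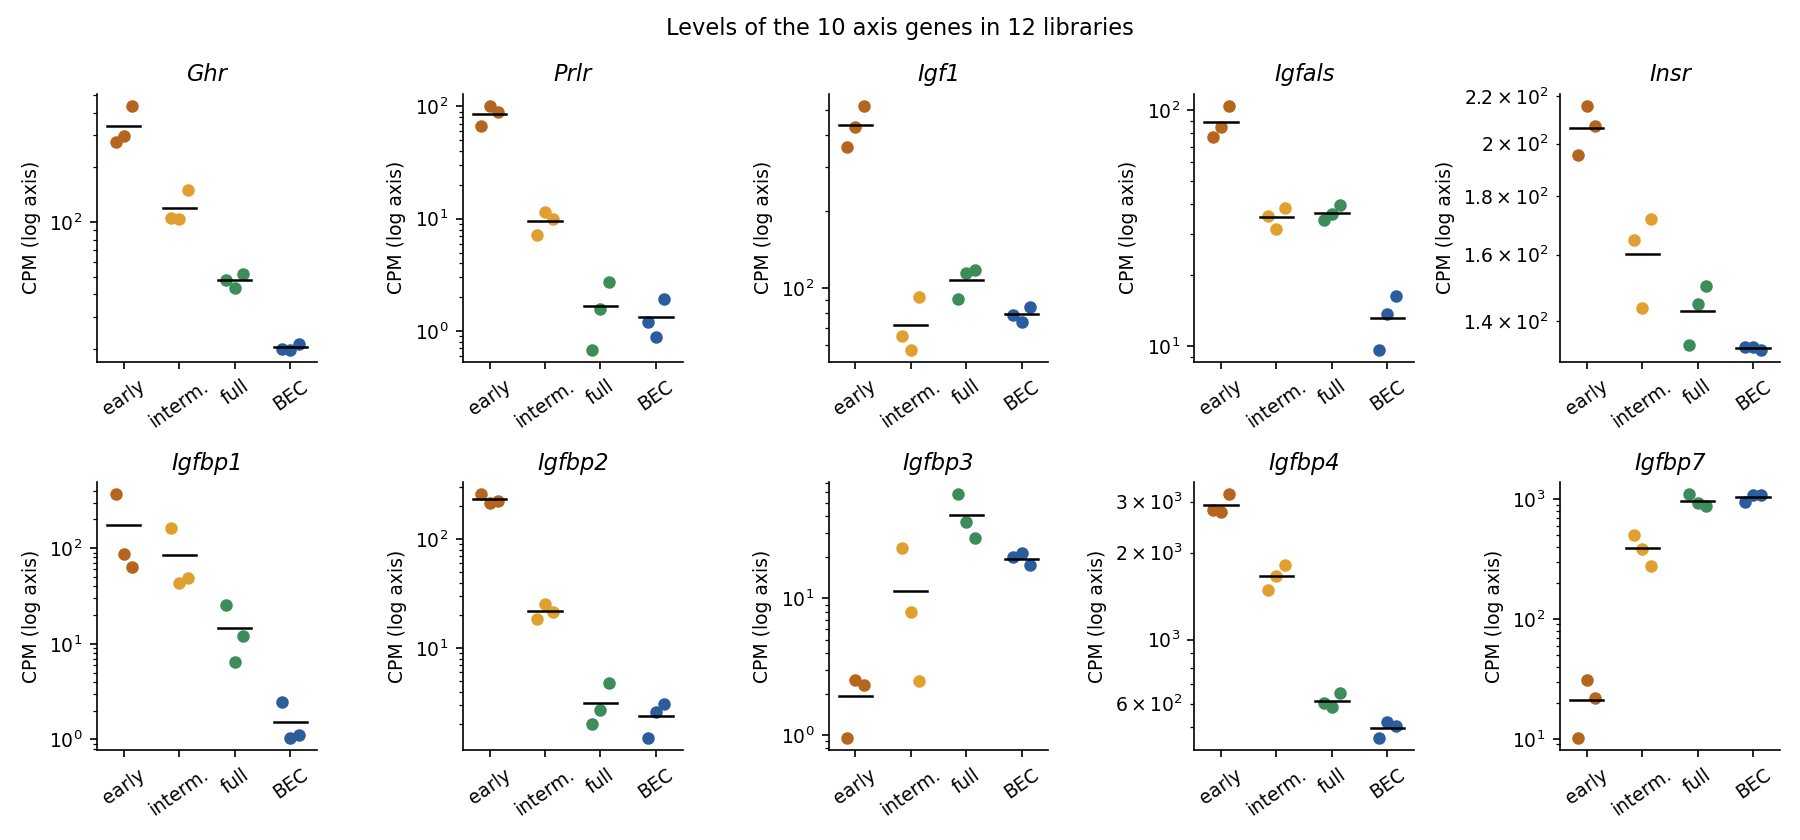
Levels of the 10 genes in every library, with CPM on a log axis for each gene; each dot is 1 library and each line the mean of 3. Ghr, Prlr, Igfbp2 and Igfbp4 step down from early, Igfbp7 climbs from 21.0 CPM in early to 1038 in BEC, and Igf1 has its lowest mean, 71.7 CPM, in intermediate, whose libraries overlap those of full and BEC.

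**Figure D2:**
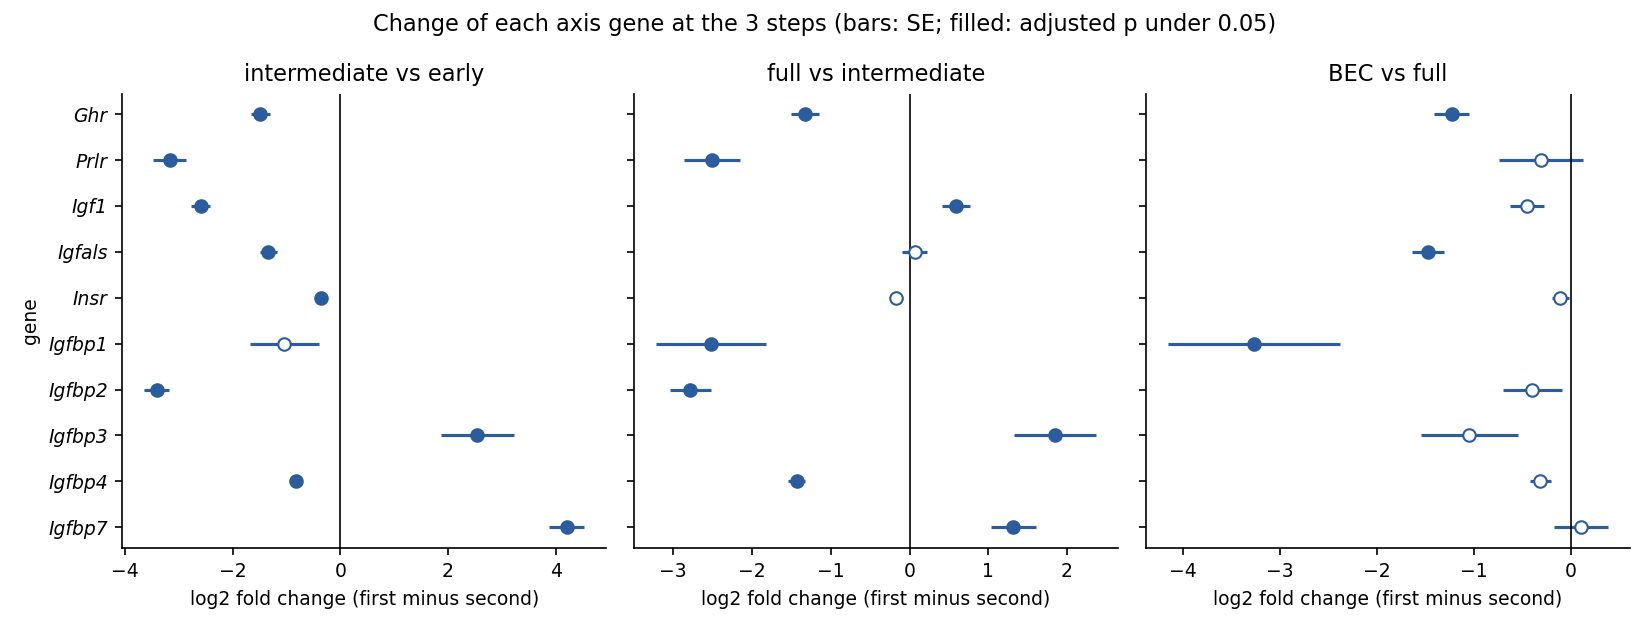
Log2 fold change of each gene at the 3 steps, first-named group minus second, on the horizontal axis; bars are standard errors and filled dots have an adjusted p under 0.05. Ghr is filled and left of 0 at all 3 steps, and 3 genes are filled in the comparison of BEC with full.

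Ghr, the growth hormone receptor gene, fell at every step. Its level was 275, 298 and 438 CPM in the 3 early libraries, 106, 103 and 151 in intermediate, 48.1, 43.4 and 52.0 in full, and 20.04, 19.8 and 21.4 in BEC. No 2 neighbouring groups overlapped. The log2 fold changes were -1.49 (SE 0.18, edgeR adjusted p 7.86e-06), -1.33 (SE 0.18, edgeR adjusted p 4.55e-05) and -1.23 (SE 0.18, edgeR adjusted p 0.000221), and the mean of early was 16.5 times that of BEC. Without the replicate block Ghr was the only member called lower at all 3 steps, a pattern found in 3.52% of genes, and with it Igfbp1 and Igfbp4 were too, as were 4.39% of genes in that fit.

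Prlr, the receptor gene for prolactin, which signals through the same kinase as the growth hormone receptor, fell further and stopped falling earlier. Early libraries had 66.8, 102 and 88.8 CPM, intermediate 7.10, 11.5 and 9.85, full 0.681, 1.56 and 2.76, and BEC 1.204, 0.885 and 1.92. Full and BEC overlapped, and these are levels of 16 to 63 counts per library. Prlr fell by 3.17 (SE 0.30, edgeR adjusted p 1.17e-06) and then by 2.51 (SE 0.36, edgeR adjusted p 8.26e-05) on the log2 scale. BEC against full gave -0.31 (SE 0.43, edgeR adjusted p 0.707). Of 10 hepatocyte markers, 5 were called lower in BEC than in full and 0 higher, so the lack of a call there was not particular to Prlr.

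Insr, the insulin receptor gene, had the narrowest range of the 10. Its level was 195, 216 and 207 CPM in early, 165, 144 and 172 in intermediate, 134, 145 and 150 in full and 133, 133 and 132 in BEC. Early lay above the other groups, and intermediate and full overlapped. The change from early to intermediate was -0.36 (SE 0.09, edgeR adjusted p 0.00316) and from early to BEC -0.64 (SE 0.09, edgeR adjusted p 1.75e-05). Both signs depend on scaling: with total counts only, the same comparisons gave 0.30 (edgeR adjusted p 0.00756) and 0.23 (edgeR adjusted p 0.0254). The medians of all genes on that scale were higher, at 0.72 and 1.004. No direction is therefore given for Insr other than relative to the TMM scale.

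Igf1r, the receptor gene for IGF-1 and the closest relative of Insr in structure, moved over a far wider range and rose at every step. Early libraries had 0.316, 0.818 and 0.567 CPM (4 to 9 counts), intermediate 5.47, 2.58 and 1.75, full 40.7, 57.0 and 33.1, and BEC 103, 124 and 120. The groups did not overlap. The log2 fold changes were 2.52 (SE 0.53, edgeR adjusted p 0.0012), 3.76 (SE 0.31, edgeR adjusted p 7.01e-07) and 1.41 (SE 0.25, edgeR adjusted p 0.000982). Per exonic length, a scale on which the 2 genes can be set side by side and whose ratio within a library needs no scaling factor, Insr exceeded Igf1r by 755, 322 and 447 times in the early libraries. The ratio was 36.8, 68.2 and 120 in intermediate, 4.01, 3.11 and 5.55 in full and 1.58, 1.31 and 1.35 in BEC. Transcripts of the 2 receptors were thus near equal in BEC and far apart in early cells.

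**Figure D3:**
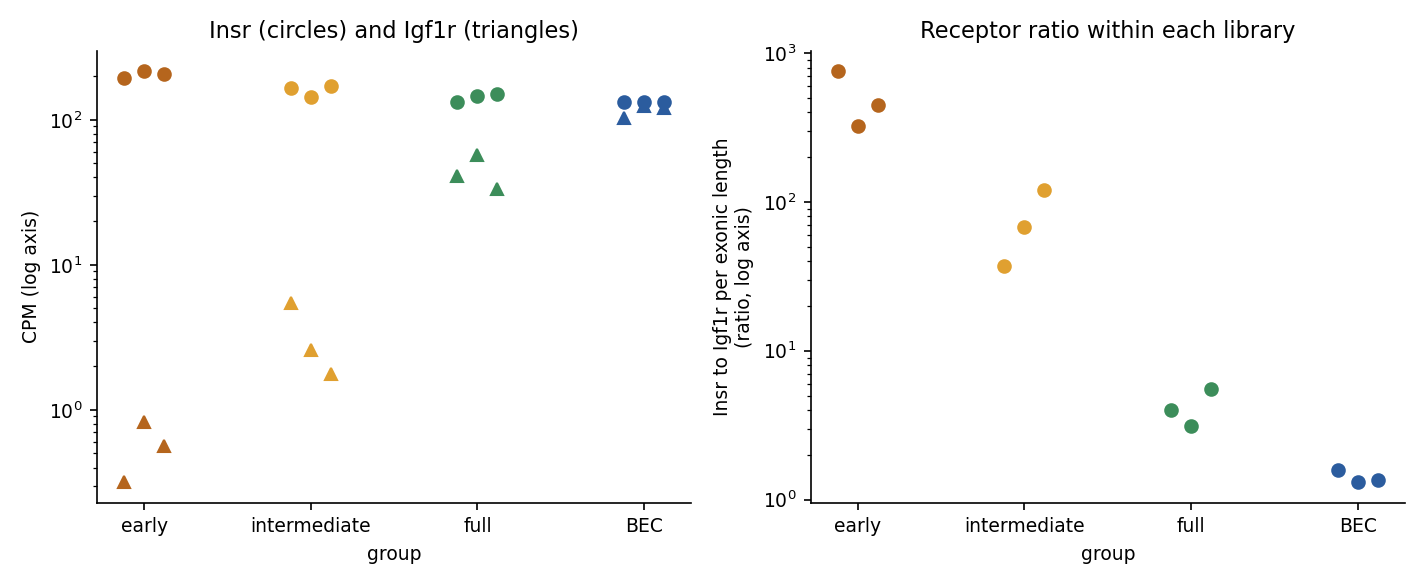
Left, CPM of Insr (circles) and Igf1r (triangles) in each library on a log axis; right, their ratio per exonic length within each library, also on a log axis, with groups along the horizontal axes. The ratio drops from between 322 and 755 in early to between 1.31 and 1.58 in BEC.

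Igf1, the ligand gene, fell at the first step and was not lower at the second. Early libraries had 358, 429 and 519 CPM, intermediate 65.2, 57.5 and 92.6, full 91.2, 115 and 118, and BEC 79.0, 73.8 and 84.3. Intermediate was the lowest group by its mean, and 1 of its libraries overlapped full. Igf1 fell by 2.60 on the log2 scale (SE 0.18, edgeR adjusted p 7.10e-08) and then rose by 0.59 (SE 0.17, edgeR adjusted p 0.0152), the only member lower at the first step and higher at the second, which 1.05% of all genes were. Full was above intermediate in all 3 same-numbered pairs, and a fit with the block put the rise at 0.61 (edgeR adjusted p 0.000907). It lost its call without intermediate replicate 1 (0.53, edgeR adjusted p 0.0542), intermediate replicate 2 (0.45, 0.0814), full replicate 2 (0.55, 0.0537) or full replicate 3 (0.52, 0.0583). BEC against full gave -0.45 (edgeR adjusted p 0.0874), and with the replicate block the difference was called (-0.44, edgeR adjusted p 0.0122). The antisense gene Igf1os had 0 to 19 counts in any library. Whether counting used strand is not given in the sources used here.

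Macrophages also transcribe Igf1, so their markers were read in the same libraries, although the gates took EGFP+ or Epcam+ cells. The summed level of 12 macrophage markers ran from 26.3 to 30.1 CPM in early, from 31.2 to 43.3 in intermediate, from 66.7 to 99.6 in full and from 134 to 168 in BEC. In full and BEC Csf1r carried most of this, and its group means were 3.94, 24.6, 67.8 and 127 CPM on average, while the Kupffer cell gene Clec4f stood at 1.70, 1.23, 1.86 and 3.69 and Adgre1 at 0.135, 0.290, 0.381 and 0.522. Cd68 moved otherwise than Csf1r, at 14.0, 2.74, 1.62 and 3.46 CPM on average. Of 10 macrophage markers tested, 1 was called higher and 1 lower in intermediate than in early. In full against intermediate 1 was higher and 0 lower, and in BEC against full 2 were higher and 0 lower. The part of macrophages in the Igf1 levels was not tested.

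Igfals, the gene of the subunit that holds IGF-1 in its large serum complex, fell in 2 separate drops with a plateau between them. Early libraries had 77.1, 85.1 and 104 CPM, intermediate 35.8, 31.2 and 38.3, full 34.4, 36.3 and 39.5, and BEC 9.68, 13.7 and 16.3. Intermediate and full overlapped, and both lay between early and BEC without overlap. The first drop was -1.34 (SE 0.16, edgeR adjusted p 1.08e-05) and the last -1.47 (SE 0.17, edgeR adjusted p 2.66e-05), with 0.07 (SE 0.16, edgeR adjusted p 0.777) between. The hepatocyte-derived cells of the full group, which carry Epcam, thus still held 2.78 times the Igfals level of resident biliary cells.

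The binding proteins split into those lost and those gained. Igfbp2, a binding protein made by hepatocytes, had 258, 213 and 225 CPM in early, 18.6, 25.3 and 21.3 in intermediate, 1.9997, 2.72 and 4.77 in full and 1.49, 2.61 and 3.06 in BEC. It fell by 3.42 (SE 0.23, edgeR adjusted p 4.93e-08) and by 2.78 (SE 0.26, edgeR adjusted p 1.85e-06), and full and BEC overlapped. The difference of BEC from full was -0.40 (SE 0.30, edgeR adjusted p 0.435). The early mean was 97.2 times the BEC mean.

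Igfbp4, whose product holds IGFs away from the receptor until the protease Pappa cleaves it, fell more at the second step than at the first. Its level was 2814, 2770 and 3182 CPM in early, 1486, 1659 and 1814 in intermediate, 602, 583 and 652 in full, and 456, 519 and 504 in BEC. The first step was -0.82 (SE 0.11, edgeR adjusted p 2.59e-05) and the second -1.43 (SE 0.11, edgeR adjusted p 4.63e-07). With total counts only, the first step was -0.16 and not called (edgeR adjusted p 0.199). BEC lay below full without overlap and was not called (-0.31, SE 0.11, edgeR adjusted p 0.0588), whereas the replicate block called it (-0.31, edgeR adjusted p 0.0167), as did DESeq2 (adjusted p 0.0171).

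Igfbp7, the gene of a secreted protein of this superfamily that binds IGFs weakly and is common in epithelial and vascular matrix, rose most. Early libraries had 10.1, 30.8 and 22.1 CPM, intermediate 500, 386 and 278, full 1097, 934 and 869, and BEC 949, 1078 and 1086. Full and BEC overlapped, and both earlier groups lay clear of them and of each other. Igfbp7 rose by 4.21 at the first step (SE 0.33, edgeR adjusted p 1.62e-07) and by 1.32 at the second (SE 0.28, edgeR adjusted p 0.00212). The change between full and BEC was 0.10 (SE 0.28, edgeR adjusted p 0.862). By rank of absolute fold change, the first step placed it 569th of 16210 genes.

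Igfbp3, the main carrier of IGF-1 in serum, also rose, from a low level and with a wide spread. Early libraries had 0.949, 2.55 and 2.35 CPM, intermediate 23.6, 8.00 and 2.49, full 57.9, 36.0 and 27.6, and BEC 19.99, 21.3 and 17.5. Intermediate overlapped early, and full lay above all other groups. The log2 fold changes were 2.54 (SE 0.68, edgeR adjusted p 0.00599) and 1.85 (SE 0.52, edgeR adjusted p 0.0119), then -1.05 (SE 0.50, edgeR adjusted p 0.175) for BEC against full. The first rise lost its call without the 4 replicate 1 libraries (1.11, edgeR adjusted p 0.0927) and the second without intermediate replicate 2 (edgeR adjusted p 0.0569) or full replicate 1 (0.0543). Without intermediate replicate 1 the 3 steps were 1.45, 2.94 and -1.05, and all were called (edgeR adjusted p 0.0319, 0.000131 and 0.0348). BEC against intermediate was 0.80 (edgeR adjusted p 0.22) and 1.05 with the replicate block (edgeR adjusted p 0.0466). Same-numbered libraries were taken as pairs only between neighbouring groups, which these are not. Without intermediate replicate 1, BEC against intermediate was 1.89 (edgeR adjusted p 0.00217).

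Endothelial cells and stellate cells are known sources of Igfbp7 and Igfbp3, so their markers were read in the same libraries. The summed level of 12 endothelial markers ran from 33.9 to 53.5 CPM in early, from 38.5 to 49.98 in intermediate, from 13.4 to 15.2 in full and from 8.82 to 18.6 in BEC. Flt1 was at 11.6, 17.4, 1.59 and 0.465 CPM on average. Stab2 was at 11.9, 5.02, 1.40 and 0.938, and Egfl7 at 4.14, 8.16, 6.78 and 4.84. Of 11 endothelial markers tested, 1 was called higher and 1 lower in intermediate than in early. In full against intermediate 0 were higher and 5 lower, and in BEC against full 0 and 1. The summed level of 12 stellate cell and fibroblast markers ran from 133 to 334 CPM in early, from 1829 to 2525 in intermediate, from 2993 to 3457 in full and from 1681 to 2262 in BEC. Nearly all of that rise was Rgs5, at 41.0, 1970, 3185 and 1918 CPM on average. Reln stood at 71.4 CPM in early and 8.97 in BEC, Lrat was at 2.34, 1.26, 0.837 and 0.608, and Dcn at 20.5, 8.98, 5.17 and 8.63. Of 11 stellate markers tested, 1 was called higher and 1 lower in intermediate than in early, 2 higher and 1 lower in full than in intermediate, and 0 higher and 3 lower in BEC than in full. Ngfr was at 2.34 CPM in full, beside 0.719 in early, 0.570 in intermediate and 0.532 in BEC. The part of such cells in the Igfbp3 and Igfbp7 levels was not tested.

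Igfbp1 spread widely between replicates, with an SD of 97.4% of the mean in early, and the spread followed the replicate number. Replicate 1 had 367, 161, 25.4 and 2.46 CPM in early, intermediate, full and BEC. Replicate 2 had 87.9, 43.6, 6.42 and 1.03, and replicate 3 had 64.0, 48.6, 11.98 and 1.10. In each group the library numbered 1 was the highest, by between 2.12 and 5.74 times. Of all genes tested, 5.97% were highest in replicate 1 of all 4 groups, and 0.16% (26 genes) were so by at least 1.5 times. Ghr, Igf1 and Igfals were highest in replicate 3 of all 4 groups, as were 4.03% of genes. None of the 10 was lowest in replicate 1 of all 4 groups, which 6.16% of genes were.

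The decline of Igfbp1 across groups was seen within every replicate number. The log2 ratio of intermediate to early was -1.19, -1.01 and -0.40 in replicates 1, 2 and 3, that of full to intermediate -2.66, -2.76 and -2.02, and that of BEC to full -3.37, -2.65 and -3.45. Without the replicate block the first step was not called (-1.04, SE 0.65, edgeR adjusted p 0.194), and with it the step was called (-0.91, edgeR adjusted p 0.00124). Without early replicate 1 the sign of that step turned (0.15, edgeR adjusted p 0.845), and without intermediate replicate 1 it was -1.90 and called (edgeR adjusted p 0.0303). Without the 4 replicate 1 libraries it was -0.72 (edgeR adjusted p 0.0195). The later steps were -2.52 (SE 0.70, edgeR adjusted p 0.0104) and -3.27 (SE 0.89, edgeR adjusted p 0.0169), and under the block they were -2.46 and -3.28 (edgeR adjusted p 7.1e-07 and 2.79e-06). In fits without the block, the former lost its call without intermediate replicate 1 (-1.65, edgeR adjusted p 0.0595), and the latter without full replicate 1 (0.078), BEC replicate 2 (0.0678) or BEC replicate 3 (0.062). BEC against full placed Igfbp1 202nd of 16210 genes by absolute fold change, the largest among the members in that comparison.

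**Figure D4:**
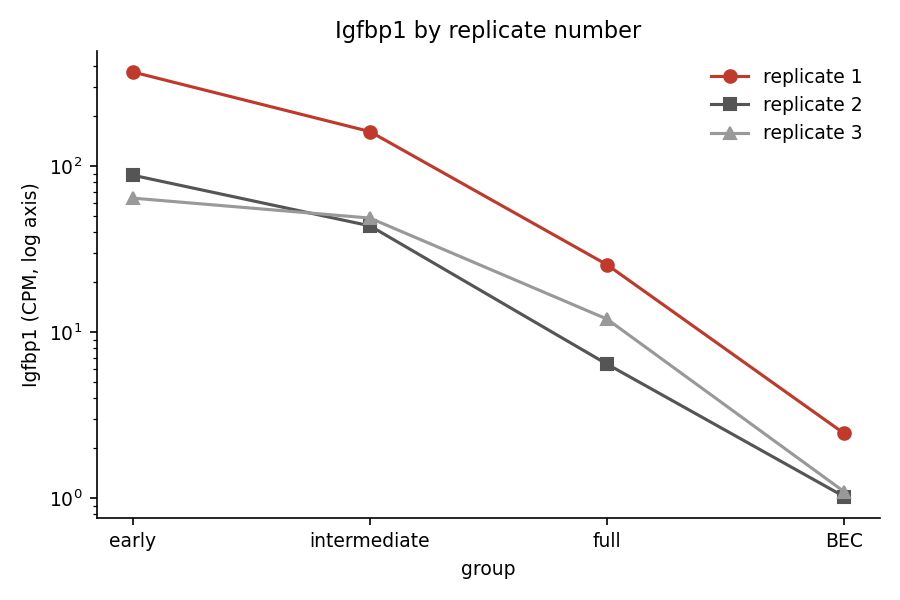
Igfbp1 in CPM on a log axis across the 4 groups, with 1 line for each replicate number. The line of replicate 1 lies above the others in every group, and all 3 lines fall from early to BEC at each step.

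Per exonic length, the 5 binding protein transcripts exchanged places. The summed level per kilobase was 919 ± 100.8 CPM in early and 766 ± 96.8 CPM in intermediate libraries, and 963 ± 103 and 978 ± 70.6 CPM in full and BEC (SD, n = 3 each), not tested between groups. Igfbp4 made up 62.1%, 75.9% and 79.7% of that sum in the early libraries, 38.5%, 50.8% and 60.0% in intermediate, 12.6%, 14.3% and 16.7% in full and 11.5%, 11.5% and 11.2% in BEC. Igfbp7 made up 0.816%, 3.08% and 2.02% in early, 47.4%, 43.1% and 33.6% in intermediate, 84.0%, 83.8% and 81.2% in full and 87.5%, 87.6% and 88.0% in BEC. These shares need no scaling factor. Igfbp4 was thus the leading binding protein transcript in the early libraries and Igfbp7 in the full and BEC libraries, with intermediate libraries between. Igfbp2 held 13.7% ± 0.24 in early and 0.13% ± 0.037 in BEC, and Igfbp3 stayed under 2% in every library.

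**Figure D5:**
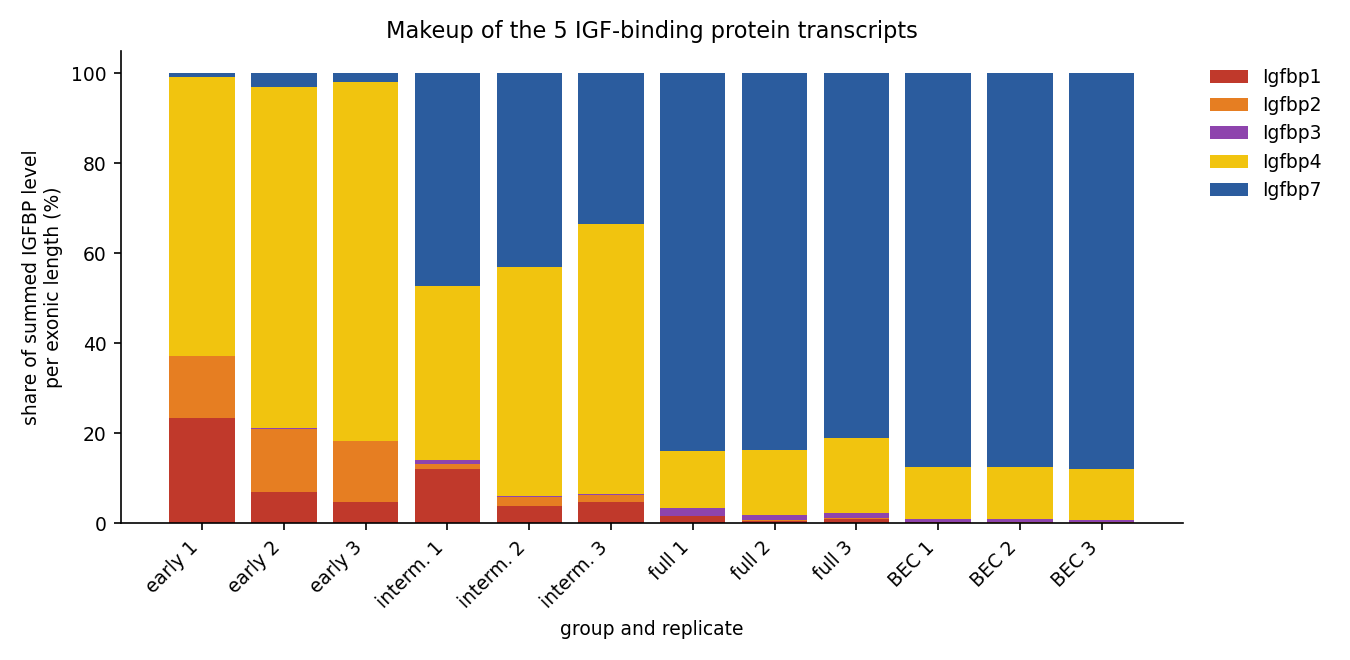
Stacked bars give, for each of the 12 libraries, the percent of the summed level per exonic length held by each of 5 IGF-binding protein genes. The Igfbp7 part grows from between 0.816% and 3.08% in early to between 87.5% and 88.0% in BEC, while Igfbp4 shrinks.

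The members also differed in how far each stage had moved from the early to the BEC level, on log2 CPM. Intermediate libraries had covered 13.5% ± 16.3 of the way for Igfbp1, 32.1% ± 5.61 for Igfbp4, 36.9% ± 7.58 for Ghr, 51.8% ± 3.36 for Igfbp2 and 74.7% ± 7.37 for Igfbp7 (SD, n = 3 each). Over the 3185 genes lower in BEC than early by at least 2-fold the median was 51.2%, and over the 4362 higher genes 51.5%. Igf1 had covered 107% ± 14.5 in intermediate and 81.9% ± 8.38 in full. Full libraries had covered 45.8% ± 3.64 for Igfals, 52.2% ± 15.4 for Igfbp1 and 69.5% ± 3.25 for Ghr, beside medians of 88.5% and 88.4%, and 129% ± 16.0 for Igfbp3. Insr, Igfbp4, Igfbp2, Prlr and Igfbp7 were at 83.4%, 87.8%, 94.6%, 97.1% and 98.2% on average in full. These percentages share the early and BEC libraries and are given without a test.

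Growth hormone signalling genes did not move as a block. Of 19 listed, 16 were tested, and 3 were higher and 4 lower in intermediate than in early, with a median log2 fold change of 0.08 beside 0.06 for all genes and 43.8% of the list called beside 54.4%. With total counts only these were 8 and 0. Jak2, the receptor's kinase, rose from 34.7 ± 4.19 to 64.3 ± 7.26 CPM at the first step (0.89, SE 0.12, edgeR adjusted p 1.93e-05) and was at 91.0 ± 8.86 in BEC. Stat5b, the main growth hormone transducer in liver, was at 98.0 ± 14.7, 97.7 ± 4.48 and 88.6 ± 0.61 CPM in the hepatocyte-derived groups and at 58.6 ± 2.49 in BEC (-0.60 against full, SE 0.10, edgeR adjusted p 0.000552). Its first step was -0.01 on the TMM scale (edgeR adjusted p 0.974). On total counts alone that step was 0.66 and called (edgeR adjusted p 3.97e-05). Stat5a was at 28.3 ± 5.54, 39.0 ± 1.70, 34.5 ± 0.351 and 31.2 ± 2.83 CPM (SD, n = 3 each).

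Feedback inhibitors that growth hormone is known to induce differed among themselves. Socs2 had 16.8, 20.4 and 22.7 CPM in early, 89.0, 66.9 and 58.3 in intermediate, 198, 181 and 182 in full and 330, 299 and 285 in BEC. The groups did not overlap, and Socs2 rose at each step (1.84, 1.39 and 0.71, edgeR adjusted p 3.12e-07, 5.13e-06 and 0.00239). Cish fell from 18.3 ± 3.25 to 9.82 ± 2.96 CPM (-0.90, edgeR adjusted p 0.0097), which was not called on total counts alone (-0.24, edgeR adjusted p 0.429), and rose to 17.6 ± 3.09 in full (0.84, edgeR adjusted p 0.0171). Its level in BEC was 21.6 ± 6.57 CPM (SD, n = 3). Socs3, named after its values were seen, had 106, 21.0 and 15.3 CPM in early and 27.7, 11.1 and 12.3 in intermediate. These groups overlapped, and the difference was -1.49 (edgeR adjusted p 0.0447), not called on total counts alone (-0.81, edgeR adjusted p 0.223).

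Genes that growth hormone pulses are known to maintain in male mouse liver fell, though the sex of these mice is not given. Part of the list was absent or low in early already. Elovl3 had 0 counts in every library and Hsd3b5 at most 3. In early libraries Slco1a1 was at 3.87 CPM and Cyp4a12a at 6.73 on average. Of 11 listed, 8 were tested, of which 7 were lower in intermediate than in early, 5 lower in full than in intermediate and 3 lower in BEC than in full, with 0 higher at any step. Of all genes, 25.7%, 19.8% and 10.6% were lower at these steps. Their median log2 fold changes were -2.85, -3.07 and -0.11. The 10 general hepatocyte markers moved the same way, with 10, 10 and 5 lower and medians of -2.28, -2.03 and -0.44, and their part in the fall of this list was not tested. Mup20, a urinary protein gene of a large family whose counts may be split among near copies, went from 941 CPM in intermediate to 76.7 in full (-3.62, edgeR adjusted p 2.05e-06). Cyp2d9 fell from 945 to 106 CPM at the first step (-3.16, edgeR adjusted p 2.83e-07), and Cyp7b1, an oxysterol hydroxylase, fell from 12.6 to 3.40 CPM between full and BEC (-1.89, edgeR adjusted p 7.27e-05).

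Insulin signalling genes were mixed, with 8 higher and 7 lower of 33 tested at the first step, 3 and 9 at the second and 2 and 6 at the third. The share called, 45.5%, 36.4% and 24.2%, was near that of all genes, 54.4%, 40.7% and 21.3%. Under total counts only the first step had 25 higher and 2 lower and the second 8 higher and 6 lower, so that the split of higher and lower calls depended on the scaling. Irs1, the adaptor that insulin and IGF-1 receptors phosphorylate, had 35.8, 38.7 and 48.5 CPM in early, 19.9, 22.4 and 23.5 in intermediate, 8.25, 7.71 and 11.1 in full and 0.193, 1.44 and 1.55 in BEC. The groups did not overlap. Its changes were -0.90, -1.28 and -3.07 (edgeR adjusted p 0.0124, 0.00243 and 3.50e-05), the first not called with total counts only (-0.24, edgeR adjusted p 0.463). Irs2, its partner in liver, was at 36.4 ± 19.6, 46.0 ± 10.4, 63.7 ± 18.97 and 39.0 ± 9.63 CPM and was called at none of the 3 steps on the TMM scale (edgeR adjusted p 0.412, 0.263 and 0.149). On total counts alone its first step was 0.999 and called (edgeR adjusted p 0.0141).

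Grb10, an imprinted gene whose product binds and restrains the insulin and IGF-1 receptors, had 0.554, 1.36 and 1.38 CPM in early, 53.4, 50.3 and 33.8 in intermediate, 184, 240 and 256 in full and 74.5, 72.2 and 62.9 in BEC. It rose by 5.39 (SE 0.28, edgeR adjusted p 4.35e-09) and 2.31 (SE 0.19, edgeR adjusted p 5.87e-07) and fell by 1.70 from full to BEC (SE 0.18, edgeR adjusted p 1.43e-05), so that full was the highest group. Gcgr, the glucagon receptor gene, fell from 486 to 149, 18.2 and 4.37 CPM. Ceacam1, which promotes insulin clearance in hepatocytes, fell at the first step from 126 to 36.0 CPM (-1.81, edgeR adjusted p 1.25e-07). Of 9 genes that insulin is known to regulate, 7 were lower at the first step and 5 at the second, where 10 of 10 hepatocyte markers were lower at both and 25.7% and 19.8% of all genes. Between BEC and full 0 of the 9 were called, beside 5 of 10 hepatocyte markers lower and 21.3% of all genes called. Pck1, the gluconeogenic enzyme that insulin represses, fell from 289 to 20.2 CPM at the second step (-3.84, edgeR adjusted p 3.38e-07).

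Of 21 remaining IGF system genes listed, 14 were tested, and 4 were higher and 2 lower at the first step, 4 and 3 at the second, and 3 and 5 between BEC and full. On total counts alone the first 2 steps had 8 higher and 1 lower, and 6 higher and 3 lower. The share called was 42.9%, 50% and 57.1%, beside 54.4%, 40.7% and 21.3% of all genes. Igf2, the fetal ligand gene, had 0 counts in early and full libraries and at most 2 in any other. Igf2r, which clears IGF-2, went from 163 ± 3.40 and 186 ± 12.6 CPM to 263 ± 7.90 in full (0.50, SE 0.08, edgeR adjusted p 0.00022). Igfbp6 rose and then fell, at 2.96 ± 0.203, 11.3 ± 2.83, 3.48 ± 0.524 and 0.373 ± 0.073 CPM (SD, n = 3), with edgeR adjusted p 9.83e-06, 3.60e-05 and 3.61e-06. Igfbp5 was higher in BEC than in full, at 14.3 ± 6.24 against 2.48 ± 0.545 CPM (2.53, edgeR adjusted p 0.000605). Klb, the co-receptor gene for the hepatokine FGF21, was at 48.4, 30.1 and 20.8 CPM in the hepatocyte-derived groups and 1.15 in BEC (-4.17, SE 0.17, edgeR adjusted p 7.07e-09). H19, the imprinted noncoding neighbour of Igf2, fell from 50.7 ± 10.1 to 4.04 ± 2.31 CPM at the first step (-3.65, edgeR adjusted p 1.15e-06).

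The genes most like each member over the 12 libraries were found by Pearson's r of log2 CPM among 10913 genes with at least 10 CPM in some group. For Igfbp7 they were Ckap4 (r 0.999) and Tspan3 (r 0.998), for Igfbp2 Haao (r 0.998) and Apoa5 (r 0.997), and for Ghr Inhbe and Apob (r 0.994 for both). For Igf1 they were Ece1 (r 0.977) and Elovl5 (r 0.973), and for Igfbp3, with its peak in full, Aebp1 (r 0.974) and Mmp23 (r 0.968). The libraries share the 4 groups, so high values are common and carry no test.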

How the data were processed

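Bulk RNA was measured in 12 libraries, and groups and replicate numbers were taken from the sample titles. The authors deposited raw counts per gene symbol, and the submitters' processing notes name STAR 2.7.10b, featureCounts 2.0.1, DESeq2 and the build GRCm39. Annotation, strand setting and multi-mapping rule are not given in the sources used here. A further deposited table holds signal, which is the counts over 1 size factor per library (0.623 to 0.711 in early, 1.17 to 1.23 in BEC), which was used only as a check.

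Counts were analysed with R 4.3.3, edgeR 4.0.16 and DESeq2 1.42.0; sequences and figures used matplotlib 3.10.9 under Python 3.11.15. Genes were kept by filterByExpr, which left 16210 holding over 99% of each library, and scaled by TMM. A single model of all 12 libraries had 1 coefficient for each group, tested by edgeR's quasi-likelihood method with Benjamini-Hochberg adjustment over all kept genes. Standard errors are the fold change divided by the root of F. log2 CPM used a prior count of 2, and a floor of 3 counts equals 0.128 to 0.273 CPM, for counting error only. Exonic length is the union of GENCODE M21 exons, another build than the counts. The procedure was tested on simulated counts.

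The members, lists and motifs were chosen with earlier results of these data known. Named genes are all members, 13 further genes of the pathway fixed by name, and the 2 largest changes in each direction per list and step; not every gene this rule gives is reported here. Same-numbered libraries deviated together between neighbouring states (r 0.121 to 0.293 at the first step, 0.137 to 0.322 at the second, 0.17 to 0.257 at the third), so the numbers were taken to pair libraries there, from these values and not from the labels. At least 1 r was under 0.1 for each other pair of groups. Replicates differed beyond counting error, with chi-square per degree of freedom from 5.23 to 54.4. Alternatives covered scaling, DESeq2, filters, the replicate block, fits of 6 libraries, each library left out, and all replicate 1 libraries left out, the last chosen after seeing the data.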

Additional observations from a re-analysis of the deposited data

How the results depend on the processing

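Outside the fits that left out libraries, 133 counts of genes called stayed within 1.5 times of the values given and 5 moved. BEC against full, the number of members called lower was 6 with no filter on low counts, 5 with the replicate block and 6 with fits of 6 libraries, against 3. BEC against intermediate, the number called higher was 2 with no filter and 2 with the replicate block, against 1. Same-numbered libraries were not taken as pairs for that comparison. Insr reversed with total counts only, at 0.30 (intermediate against early), 0.037 (full against intermediate), 0.34 (full against early) and 0.23 (BEC against early), where the median of all genes had moved as well. Among the member values, 400 kept direction and side of the threshold, 13 gained a call and 3 lost one. In fits that left out libraries 754 kept both, 8 gained a call, 14 lost one and 4 reversed: Igfbp1 for intermediate against early without early replicate 1 (0.15; range over such fits -1.90 to 0.15), Igfals for full against intermediate without intermediate replicate 2 (-0.016; range -0.016 to 0.13), and Prlr (0.26; range -0.69 to 0.26) and Igfbp2 (0.024; range -0.65 to 0.024) for BEC against full without full replicate 3. The cause of these changes was not tested.

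With 1 library, or the 4 replicate 1 libraries, left out, the members called higher and lower were 1 to 2 and 7 to 8 for intermediate against early, 1 to 3 and 4 to 5 for full against intermediate, 0 and 2 to 5 for BEC against full, and 1 to 2 and 6 to 7 for BEC against intermediate. The wider pathway genes called ranged from 37 to 45, 25 to 40, 20 to 26 and 41 to 51 in those comparisons. For full against early and BEC against early 2 higher and 8 lower were found in each such fit, with 49 to 59 and 54 to 63 wider genes. Among 4 groups, 10 members and 60 to 68 wider genes were called. The 1 member higher in full than in intermediate was found without intermediate replicate 2. The replicate block changed no member's call apart from the Igfbp1, Igf1, Igfbp4 and Igfbp3 values given above. Low levels rest on few counts: 16 to 63 a library for Prlr in full and BEC, 31 to 109 for Igfbp2 there and 12 to 29 for Igfbp3 in early.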

Other observations

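Some genes under insulin control, Igfbp1 among them, had the same replicate number highest in all 4 groups, a pattern chosen after the values were seen. Igfbp1, which insulin represses, was highest in replicate 1 of each group. Thrsp, which insulin induces in hepatocytes, was lowest in replicate 1 and highest in replicate 3 of each group. This lipogenic regulator had 131, 358 and 773 CPM in early replicates 1, 2 and 3, 11.8, 29.0 and 54.1 in intermediate, 2.64, 4.24 and 8.66 in full and 1.11, 4.01 and 12.7 in BEC. Of all genes tested, 6.16% were lowest in replicate 1 of all 4 groups and 4.03% were highest in replicate 3. Fasn was also highest in replicate 3 of each group, as were 3 of the 10 members, Ghr, Igf1 and Igfals, whereas Pck1, G6pc and Ppargc1a, which insulin represses, were not highest in replicate 1 of each group. Pdk4 was highest in replicate 1 of each group. What the numbers mark is not given in the labels, and its part in these values was not tested.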
